A study of Mus musculus with 10 samples.

Results

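The unfolded protein response and the integrated stress response were followed through 32 genes, chosen by name, of 55494 genes in the annotation used. The rule that names them uses no measured value, but they were chosen with earlier results of these data known. They fall into 13 genes of the ER chaperone arm, 4 genes of ER associated degradation, 4 genes for the stress sensors and XBP1, and 11 genes of the ATF4 arm. All 32 were found in the annotation, and 30 passed the filter on low counts and were tested. Atf3 and Slc7a11 did not pass it.

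RNA was sequenced in bulk from leukemia initiating cells, which had been sorted by flow cytometry from spleens of Eμ-Ret mouse pups. The Poly(A:U) group of 5 pups had received 20 µg of this synthetic double-stranded RNA, and the PBS group of 5 pups had received 50 µl of PBS. All pups were 13 days old and were sampled 7 days after treatment, and the question was what Poly(A:U) does to these cells. Pups of both groups carried the RFP/RET transgene. Eμ is the enhancer of the immunoglobulin heavy chain locus, active in B lineage cells, and no library came from cells without the transgene. No strain, route of treatment or sorting gate is stated in the labels.

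Secreted and membrane proteins fold in the endoplasmic reticulum (ER) with the help of chaperones. When unfolded proteins build up there, the sensors IRE1, ATF6 and PERK raise chaperone and degradation genes, through the spliced form of XBP1 and through cleaved ATF6, and slow translation through phosphorylation of eIF2α. The same phosphorylation is set by kinases that sense amino acid shortage, heme shortage or double-stranded RNA, and it raises translation of ATF4, a transcription factor for amino acid supply and for stress genes such as Ddit3 and Trib3. B cell precursors make the immunoglobulin heavy chain and the surrogate light chain in the ER.

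Libraries held between 17859006 and 22587871 estimated reads. The summed level of 8 B cell precursor markers, among them Cd79a, Pax5 and Rag1, lay between 8779 and 10587 CPM (reads scaled to the same total in every library) in Poly(A:U) libraries and between 7305 and 11691 CPM in PBS libraries. The 8 plasma cell markers summed to 968 to 1181 CPM in Poly(A:U) libraries and 925 to 1140 CPM in PBS libraries, nearly all of it Mzb1 and Irf4, which earlier B lineage cells also express. Sdc1 and Prdm1 did not exceed 7.23 CPM, and Tnfrsf17, Ighg1 and Igha did not exceed 0.244 CPM in any library. Jchain, of the same list, was at 3.62 to 18.5 CPM in Poly(A:U) libraries, against 63.0, 36.5 and 29.96 CPM in PBS 1 to 3 and 6.24 and 2.36 CPM in PBS 4 and 5. Some libraries stood apart, and in bulk RNA fewer cells of a type and less RNA per cell cannot be told apart. PBS 1, 2 and 3 have file names with a start that no other file shares. Summed neutrophil markers (8 genes, led by S100a9 and Ngp) were at 29.1 to 258 CPM in Poly(A:U) libraries, against 685, 1029 and 868 CPM in PBS 1 to 3 and 50.8 and 48.1 CPM in PBS 4 and 5. The sum of 8 erythroid markers, led by the globin gene Hbb-bs, was 1354 to 12302 CPM in Poly(A:U) libraries, against 138, 432 and 306 CPM in PBS 1 to 3 and 2467 and 11913 CPM in PBS 4 and 5. PBS 4 had the most T cell markers, 220 CPM of 8 genes, and the most macrophage markers, 124 CPM of 8 genes, where the other 9 libraries had at most 38.2 CPM and 27.9 CPM. What that shared start of the names stands for is not stated in the labels.

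The arms differ in the sequences ahead of their genes. Promoters of 29 of the 32 genes were in the RefSeq table of build GRCm38.p6, from 250 bases before to 50 bases after the gene start, and Hyou1, Manf and Atf6 were not matched. The ER stress response element, searched as CCAAT, 9 bases of any kind and CCACG on either strand, was found in 7 of 11 ER chaperone promoters, 1 of 4 promoters of ER associated degradation genes, 0 of 3 sensor promoters and 0 of 11 promoters of the ATF4 arm. It was held by 39 of all 32851 promoters there, or 0.119%. The C/EBP-ATF element, searched as TGATGNAA on either strand, was found in 5 of 11 promoters of the ATF4 arm (Atf3, Chac1, Trib3, Slc7a11 and Asns), in Herpud1 and in 0 of 11 ER chaperone promoters, against 1304, or 3.97%, of all promoters. A further element, TGACGTGG, was in no member's promoter and in 222, or 0.676%, of all. The motif shares describe letters in these windows and not sites of binding, and they share no measurement with the expression values. The members were chosen by name as genes of these pathways, so their shares are not independent of that choice. The windows shown are those of the 3 most abundant genes by CPM with each element, on the strand of the gene with the match in capitals. Trib3 at chr2:152344031-152344086 and Asns at chr6:7693185-7693272, both on the minus strand, have it 14 bases after and 23 bases before the start. Herpud1 at chr8:94386277-94386364 on the plus strand has it 112 bases before. Calr at chr8:84847035-84847133 (minus strand), Hsp90b1 at chr10:86705598-86705694 (minus strand) and Hspa5 at chr2:34771985-34772083 (plus strand) have the ER stress response element 162, 212 and 65 bases before the start. Hsp90b1 has another match 107 bases before the start, on the opposite strand and outside the window shown. The matches of Calr, Herpud1 and Trib3 read on the opposite strand.
Hspa5: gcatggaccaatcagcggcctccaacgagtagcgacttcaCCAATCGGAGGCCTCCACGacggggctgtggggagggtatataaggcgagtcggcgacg
Hsp90b1: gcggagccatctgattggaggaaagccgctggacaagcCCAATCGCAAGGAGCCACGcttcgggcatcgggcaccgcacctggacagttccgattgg
Calr: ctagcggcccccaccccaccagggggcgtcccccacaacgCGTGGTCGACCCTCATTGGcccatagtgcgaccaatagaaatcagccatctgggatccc
Herpud1: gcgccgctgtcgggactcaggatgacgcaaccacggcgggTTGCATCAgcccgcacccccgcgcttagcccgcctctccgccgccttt
Trib3: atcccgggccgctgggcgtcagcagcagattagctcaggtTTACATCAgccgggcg
Asns: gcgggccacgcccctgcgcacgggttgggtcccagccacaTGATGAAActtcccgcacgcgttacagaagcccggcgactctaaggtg

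The ER chaperone arm was abundant and nearly level across the 10 libraries. In the ATF4 arm some genes, Cebpg and Ppp1r15a above all, varied widely, while Trib3, Psat1 and Phgdh were closer to level. After Poly(A:U) Cebpg, Ddit3, Atf4 and Xbp1 had higher means and Herpud1, Atf6 and Eif2ak3 lower means than after PBS, but no member passed the test over all genes. Cebpg, Atf4, Xbp1 and Atf6 had larger fold changes against PBS 1 to 3 than against PBS 4 and 5. The fold change of Eif2ak3 had opposite signs against them, with PBS 4 the lowest of all libraries. The fold change of Herpud1 was below 0 and that of Ddit3 above 0 against each subset. Herpud1 in PBS 4 and Ddit3 in PBS 5 lay within the Poly(A:U) range, and both subsets were set against the same Poly(A:U) libraries. In edgeR's quasi-likelihood test with Benjamini-Hochberg adjustment, 0 of the 30 tested members and 0 of 13729 genes (0%) passed at an adjusted p of 0.05. At an unadjusted p under 0.05 there were 4 members, Ddit3 and Cebpg higher and Herpud1 and Atf6 lower, beside 1002 of all genes (7.3%), 564 higher and 438 lower. DESeq2's Wald test called 1 member, Herpud1, beside 13 genes (0.0947%). The voom test of limma with library quality weights called 5 members, Xbp1, Ddit3 and Cebpg higher and Herpud1 and Atf6 lower, beside 932 genes (6.79%). On the CPM scale, for no tested member were all Poly(A:U) libraries outside the range of the PBS libraries, as they were for 130 of all genes (0.947%). On the TPM scale Ddit3 was, at 26.8 to 35.3 TPM in Poly(A:U) libraries and 18.4 to 26.3 TPM in PBS libraries. The share of all genes that did so on the TPM scale was not computed, so this separation has no background beside it.

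**Figure D1:**
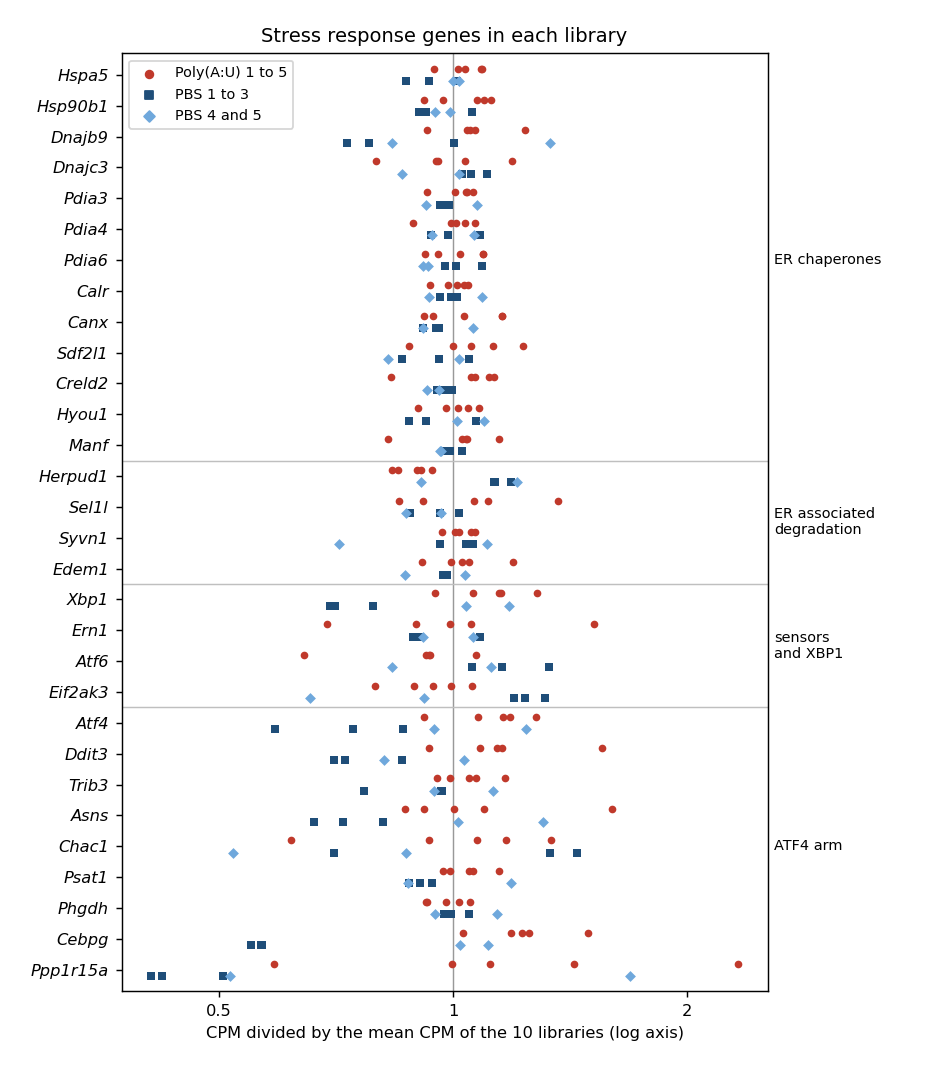
CPM of the 30 tested genes in each library, divided by the gene's mean over the 10 libraries (log axis), with Poly(A:U) libraries as circles, PBS 1 to 3 as squares and PBS 4 and 5 as diamonds. Chaperone points crowd around 1, while PBS 1 to 3 lie far to the left for Cebpg and Ppp1r15a and to the right for Eif2ak3, and 3 squares of Cebpg lie almost on each other.

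Calr, Hsp90b1 and Hspa5 were the most abundant members. On the per-length scale of TPM, Calr, the lectin chaperone calreticulin, averaged 646 ± 37.4 TPM in Poly(A:U) cells and 654 ± 50.3 TPM in PBS cells (SD, n = 5 each, as for all means here). Hsp90b1, the ER form of HSP90, averaged 425 ± 76.5 TPM in Poly(A:U) cells and 401 ± 51.5 TPM in PBS cells. Hspa5, the central ER chaperone BiP, averaged 397 ± 65.8 TPM in Poly(A:U) cells and 366 ± 37.7 TPM in PBS cells. The least abundant of the arm was Dnajb9, a cochaperone of BiP, at 12.7 ± 1.93 TPM in Poly(A:U) cells and 11.2 ± 3.03 TPM in PBS cells.

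Hspa5 is the usual readout of ER stress. It measured 577, 620.4, 633, 665 and 664 CPM in Poly(A:U) libraries 1 to 5, against 618, 569, 532, 621 and 611 CPM in PBS libraries 1 to 5. The groups overlapped, with 3 Poly(A:U) libraries above the highest PBS library and the lowest 2 values both in PBS. The log2 fold change was 0.07 ± 0.08 (SE, as for all fold changes here), with a 95% interval from -0.10 to 0.24. Hsp90b1 measured 742, 787, 870.2, 906 and 889 CPM in Poly(A:U) libraries, against 856, 732, 748, 768 and 803 CPM in PBS libraries. Its groups overlapped too, and the log2 fold change was 0.07 ± 0.08.

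Of the 13 chaperone genes 9 had a fold change above 0 and 4 below, between -0.07 for Dnajc3, a BiP cochaperone that inhibits PERK, and 0.16 for Dnajb9. Their median log2 fold change was 0.02, beside -0.0024 over all tested genes. The glycoprotein chaperone gene Canx averaged 484 ± 52.7 CPM in Poly(A:U) cells and 446 ± 27.8 CPM in PBS cells. Disulfide isomerase genes were at 506 ± 26.4 CPM for Pdia3, 176 ± 11.9 CPM for Pdia4 and 327 ± 24.9 CPM for Pdia6 in Poly(A:U) cells, against 492 ± 27.6, 176 ± 12.1 and 316 ± 22.8 CPM in PBS cells. Hyou1, an HSP70 relative that exchanges nucleotide on BiP, averaged 197 ± 13.4 CPM in Poly(A:U) cells and 195.5 ± 18.4 CPM in PBS cells. Manf, an ER resident factor that is secreted under stress, averaged 161.5 ± 18.6 CPM in Poly(A:U) cells and 156 ± 4.14 CPM in PBS cells. Each of these 6 genes had group means that differed by less than the larger SD of the groups. Sdf2l1, a partner of ER cochaperones, averaged 82.2 ± 10.3 CPM in Poly(A:U) cells and 73.2 ± 7.58 CPM in PBS cells. Creld2 averaged 50.2 ± 5.79 CPM in Poly(A:U) cells and 46.5 ± 1.28 CPM in PBS cells, and Dnajc3 averaged 96.9 ± 14.1 CPM in Poly(A:U) cells and 99.6 ± 9.12 CPM in PBS cells.

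In the fit of all libraries, precision was high enough to bound these values. For 13 of 13 chaperone genes the 95% interval left out a 1.5-fold difference in either direction, as it did for 64.3% of all tested genes. For ER associated degradation it did so for 4 of 4 genes, for the sensors and XBP1 for 2 of 4, and for the ATF4 arm for 3 of 9. A 2-fold difference lay outside the interval for 7 of 9 genes of the ATF4 arm, and for 82.7% of all tested genes. Intervals against subsets of the PBS libraries were not counted in this way. Against PBS 1 to 3 alone the log2 fold change of Dnajb9 was 0.32 ± 0.14.

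**Figure D2:**
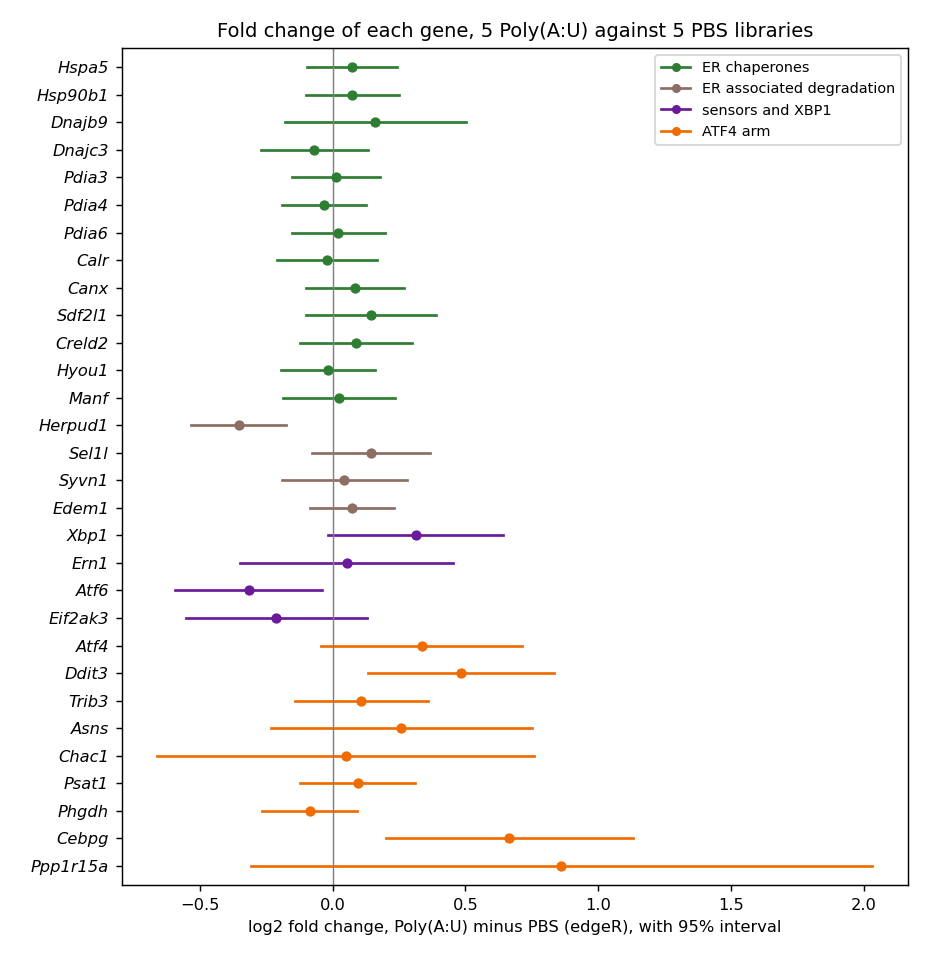
The log2 fold change of each tested gene, Poly(A:U) minus PBS, with its 95% interval from edgeR, coloured by role. Intervals of the 13 chaperone genes are narrow and cross 0, that of Ppp1r15a is the widest, and those of Herpud1, Atf6, Ddit3 and Cebpg do not reach 0 before adjustment.

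ER associated degradation sends misfolded proteins back to the cytosol for the proteasome. Herpud1, at chr8:94386438-94395377 in mm10, encodes a membrane protein that gathers the degradation complex. It measured 142, 126, 137, 136 and 128 CPM in Poly(A:U) libraries, against 171, 171, 180, 137 and 183 CPM in PBS libraries. All Poly(A:U) libraries lay below 4 of the 5 PBS libraries, and PBS 4 lay among the Poly(A:U) values. The log2 fold change was -0.35 ± 0.08, and edgeR's quasi-likelihood test gave an unadjusted p of 0.000992 and a Benjamini-Hochberg adjusted p of 0.68. DESeq2's Wald test gave an adjusted p of 0.027, with a log2 fold change of -0.37. Without PBS 4 the edgeR adjusted p was 0.21, with a log2 fold change of -0.41.

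The other genes of the group had fold changes on the other side of 0. Sel1l, the adaptor of the HRD1 ligase, averaged 79.8 ± 15.002 CPM in Poly(A:U) cells and 70.7 ± 4.72 CPM in PBS cells. Syvn1, which encodes HRD1 itself, averaged 342 ± 13.2 CPM in Poly(A:U) cells and 326 ± 52.0 CPM in PBS cells, of which PBS 4 was the lowest at 238 CPM. Edem1, a lectin that extracts misfolded glycoproteins, averaged 95.3 ± 9.42 CPM in Poly(A:U) cells and 88.8 ± 5.65 CPM in PBS cells. The log2 fold changes were 0.14 ± 0.10 for Sel1l, 0.04 ± 0.11 for Syvn1 and 0.07 ± 0.07 for Edem1.

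The protein coding transcripts Herpud1-201 and Herpud1-205 together held nearly all Herpud1 reads. Herpud1-205 held 90.5 ± 2.27% of them in Poly(A:U) cells and 84.8 ± 3.63% in PBS cells, and Herpud1-201 held 8.33 ± 2.32% in Poly(A:U) cells and 13.3 ± 2.73% in PBS cells. Exact two-sided permutation tests gave p of 0.0317 and 0.0238. Both had an adjusted p of 0.349 over the 22 transcripts of 11 genes compared, which were those with between 5% and 95% of a gene's reads, and 0 of the 22 passed. The smallest p this design can give is 0.00794. How the authors' counter shares reads among overlapping transcripts bears on these shares, and its part in them was not tested.

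Of the sensors, Atf6 and Eif2ak3 had lower means in Poly(A:U) cells. Atf6, a membrane-bound transcription factor that is cut under ER stress, measured 59.5, 40.9, 58.8, 59.3 and 68.2 CPM in Poly(A:U) libraries, against 84.5, 73.5, 67.4, 53.2 and 71.3 CPM in PBS libraries. The groups overlapped, since PBS 4 lay below 4 of the Poly(A:U) libraries. Atf6 had a log2 fold change of -0.32 ± 0.13, with an edgeR quasi-likelihood adjusted p of 0.68 (Benjamini-Hochberg). Eif2ak3, the PERK kinase that phosphorylates eIF2α, measured 237, 211, 264, 251 and 281 CPM in Poly(A:U) libraries, against 330, 319, 349, 174 and 244 CPM in PBS libraries. PBS 1, 2 and 3 were higher than every other library and PBS 4 was lower than every other library. Over all libraries it had a log2 fold change of -0.21 ± 0.16, which was -0.13 without PBS 3 and -0.34 without PBS 4. Ern1, which encodes the IRE1 kinase and nuclease, was low, at 6.69 ± 1.99 CPM in Poly(A:U) cells and 6.30 ± 0.607 CPM in PBS cells.

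Xbp1 encodes the factor that IRE1 switches on by cutting a short intron out of its mRNA. It measured 76.1, 92.6, 92.1, 85.2 and 103 CPM in Poly(A:U) libraries, against 55.8, 56.6, 63.4, 94.8 and 83.5 CPM in PBS libraries. PBS 1, 2 and 3 were lower than every Poly(A:U) library, and PBS 4 and 5 lay within the Poly(A:U) range. Xbp1 had a log2 fold change of 0.31 ± 0.15, with an edgeR quasi-likelihood adjusted p of 0.69 (Benjamini-Hochberg). The intron has 26 bases and lies in exon 4 of Xbp1-201, on the plus strand of mm10 at chr11:5524259-5524324 with 20 bases on either side in the sequence shown, where it is in capitals. Every annotated transcript that covers this region keeps it, so the deposited counts do not separate cut from uncut mRNA, and the activity of IRE1 was not measured.
Xbp1: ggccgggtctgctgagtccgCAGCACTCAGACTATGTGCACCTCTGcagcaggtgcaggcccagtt

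In the ATF4 arm, 8 of the 9 tested genes had a fold change above 0 and 1 below, with a median log2 fold change of 0.26 and a range from -0.09 to 0.86. The median was 0.07 without Poly(A:U) 2, 0.16 without PBS 1 and between 0.19 and 0.37 without any other single library. Atf4 lies at chr15:80255184-80257541 in mm10 and measured 274, 325, 295, 302 and 234 CPM in Poly(A:U) libraries, against 189, 220, 150.2, 241 and 316 CPM in PBS libraries. PBS 1, 2 and 3 were the lowest libraries, while PBS 5 was higher than 4 of the Poly(A:U) libraries. Atf4 had a log2 fold change of 0.34 ± 0.17, with an edgeR quasi-likelihood adjusted p of 0.69 (Benjamini-Hochberg), and of 0.22 without PBS 3. ATF4 is set mainly by translation, which these libraries did not measure. On the per-length scale Atf4 averaged 225 ± 13.9 TPM in Poly(A:U) cells and 177 ± 47.6 TPM in PBS cells, the most abundant of the arm.

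Cebpg, at chr7:35046422-35056573 in mm10, encodes a C/EBP factor that pairs with ATF4. It had a coefficient of variation of 33.0% over the 10 libraries. It measured 52.6, 62.6, 64.0, 60.7 and 76.1 CPM in Poly(A:U) libraries, against 29.0, 28.1, 29.0, 56.6 and 52.2 CPM in PBS libraries. PBS 1, 2 and 3 were nearly equal and below every other library, PBS 4 lay within the Poly(A:U) range and PBS 5 lay just under it. For Cebpg the log2 fold change was 0.67 ± 0.21, with an unadjusted p of 0.00902 and an adjusted p of 0.68 in edgeR's quasi-likelihood test with Benjamini-Hochberg adjustment.

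Ppp1r15a, at chr7:45522916-45526268 in mm10, encodes GADD34, the phosphatase subunit that reverses eIF2α phosphorylation. It measured 68.8, 112, 53.6, 47.8 and 28.3 CPM in Poly(A:U) libraries, against 19.6, 24.3, 20.3, 24.8 and 81.2 CPM in PBS libraries. PBS 1 to 4 lay below every Poly(A:U) library, and PBS 5 was higher than 4 of the 5 Poly(A:U) libraries. Its log2 fold change of 0.86 ± 0.52 was the highest among the members, but the spread among libraries was wide, and the edgeR quasi-likelihood adjusted p was 0.70 (Benjamini-Hochberg). Without PBS 5 the log2 fold change was 1.46 with an adjusted p of 0.24, and without Poly(A:U) 2 it was 0.51 with an adjusted p of 0.85.

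Ddit3 encodes CHOP, a factor linked to cell death under lasting stress. It measured 16.4, 23.6, 17.3, 17.5 and 14.1 CPM in Poly(A:U) libraries, against 11.04, 13.1, 10.7, 12.4 and 15.7 CPM in PBS libraries. Only Poly(A:U) 5 fell inside the PBS range, and each Poly(A:U) library was above the PBS mean. For Ddit3 the log2 fold change was 0.48 ± 0.16, with an unadjusted p of 0.0108 and an adjusted p of 0.68 in the same edgeR quasi-likelihood test. Asns, the asparagine synthetase gene, measured 10.4, 19.2, 12.1, 13.2 and 11.04 CPM in Poly(A:U) libraries, against 7.96, 8.68, 9.76, 15.7 and 12.2 CPM in PBS libraries. Its groups overlapped through PBS 4 and 5, and the log2 fold change was 0.26 ± 0.23. It was 0.056 without Poly(A:U) 2, 0.16 without PBS 1 and 0.44 without PBS 4.

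The rest of the arm was closer to level. Trib3, a pseudokinase induced by ATF4 and CHOP, averaged 21.96 ± 1.72 CPM in Poly(A:U) cells and 20.05 ± 2.67 CPM in PBS cells. The serine synthesis genes Psat1 and Phgdh averaged 155 ± 10.3 and 179 ± 10.1 CPM in Poly(A:U) cells, against 142 ± 19.4 and 186 ± 13.8 CPM in PBS cells. Phgdh was the tested gene of the arm with a fold change below 0. Chac1, an enzyme that degrades glutathione, was at 1.86 ± 0.490 CPM in Poly(A:U) cells and 1.76 ± 0.723 CPM in PBS cells, and its 95% interval ran from -0.66 to 0.76 on the log2 scale. Atf3, a stress-induced repressor, had 1, 1, 4, 6 and 5 reads in Poly(A:U) libraries and 13, 6, 8, 13 and 4 reads in PBS libraries. Slc7a11, the cystine transporter gene, had 3, 9, 1, 2 and 4 reads in Poly(A:U) libraries and 2, 0, 6, 1 and 5 reads in PBS libraries. In a fit with no filter on low counts Atf3 had a log2 fold change of -1.40 ± 0.68 and Slc7a11 of 0.36 ± 0.94, with edgeR quasi-likelihood adjusted p of 0.58 and 0.90 (Benjamini-Hochberg), and fold changes at such counts depend on the prior count.

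The ER chaperone arm and the ATF4 arm did not vary by like amounts. Each library was given an arm score, the mean log2 CPM over the tested genes of an arm, after subtracting the average over all libraries. The chaperone score averaged 0.02 ± 0.06 in Poly(A:U) libraries and -0.02 ± 0.04 in PBS libraries, and spanned 0.13 from the lowest to the highest library. The ATF4 arm score was 0.15, 0.49, 0.14, 0.07 and -0.02 in Poly(A:U) libraries, against -0.46, -0.20, -0.29, 0.04 and 0.08 in PBS libraries, a span of 0.95. PBS 1, 2 and 3 had the lowest ATF4 arm scores, and PBS 4 and 5 lay inside the Poly(A:U) range. The chaperone score minus the ATF4 score averaged -0.15 ± 0.17 in Poly(A:U) libraries and 0.15 ± 0.22 in PBS libraries. Across the 10 libraries the coefficient of variation of CPM had a median of 8.02% over the 13 chaperone genes, from 4.99% for Calr to 19.2% for Dnajb9. It had a median of 24.04% over the 8 ATF4 arm genes of at least 10 CPM, from 6.63% for Phgdh to 64.7% for Ppp1r15a, beside 12.8% over all 9093 tested genes at that level. Phgdh, Psat1 at 10.8% and Trib3 at 11.2% lay below that last median. The arms also differ in abundance and number of genes, and the part of these in the spread was not tested.

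**Figure D3:**
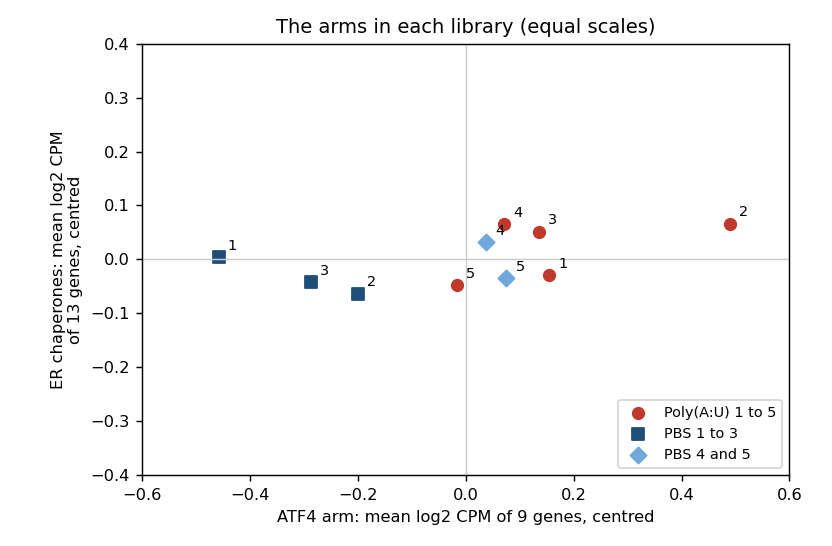
Arm scores of each library, the ATF4 arm across and the ER chaperone arm up, both as centred mean log2 CPM on equal scales, with library numbers beside the points. Libraries spread along the ATF4 axis from -0.46 in PBS 1 to 0.49 in Poly(A:U) 2 and stay within a band of 0.13 on the chaperone axis.

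The PBS libraries were then taken apart by the start of their file names. Against PBS 1 to 3 alone, a comparison made after seeing the data, edgeR's quasi-likelihood test with Benjamini-Hochberg adjustment called 5 of the 30 members, beside 603 of 14002 genes (4.31%). All controls here have the shared start and no Poly(A:U) library does, so treatment and that start cannot be told apart. Cebpg was higher in Poly(A:U) libraries, with a log2 fold change of 1.11 ± 0.11 and an adjusted p of 0.000763. So were Xbp1, with 0.59 ± 0.10 and 0.014, and Atf4, with 0.60 ± 0.15 and 0.046. Herpud1 was lower, with a log2 fold change of -0.40 ± 0.07 and an adjusted p of 0.018, as was Eif2ak3, with -0.45 ± 0.08 and 0.018. Ppp1r15a had a log2 fold change of 1.53 ± 0.44 and Ddit3 of 0.60 ± 0.18 there, with adjusted p of 0.099 and 0.086. No chaperone gene was called, and their median log2 fold change was 0.04.

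Against PBS 4 and 5, the same test called 0 of 30 members, beside 0 of 15199 genes (0%). At an unadjusted p under 0.05 it gave 1 member, Herpud1, beside 890 genes (5.86%), 109 higher and 781 lower. The log2 fold change of Herpud1 was -0.28 ± 0.12 there, with an adjusted p of 0.82. Herpud1 in PBS 4 was at 137 CPM, within the Poly(A:U) range of 126 to 142 CPM, and in PBS 5 at 183 CPM. Cebpg had a log2 fold change of 0.18 ± 0.13, Atf4 of 0.02 ± 0.17, Xbp1 of -0.02 ± 0.13, Ppp1r15a of 0.23 ± 0.67, Ddit3 of 0.32 ± 0.23 and Eif2ak3 of 0.22 ± 0.14. The median over the ATF4 arm was 0.57 against PBS 1 to 3 and 0.02 against PBS 4 and 5. Both comparisons share the 5 Poly(A:U) libraries, and the difference between them was not tested. With only PBS 4 and 5 as controls the intervals are wide for Ppp1r15a, so that a value near 0 does not show equal levels. PBS 4 had the most T cell and macrophage markers and the lowest B cell precursor sum of all libraries. Its part in this comparison was not tested. Eif2ak3 was at 174 CPM in PBS 4 and 244 CPM in PBS 5, against a mean of 249 ± 26.6 CPM in Poly(A:U) libraries.

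Within the PBS group, 6 of 30 members had PBS 1, 2 and 3 outside the range of the other 7 libraries, beside 11.2% of all tested genes. Eif2ak3 was higher in these 3 libraries, and Xbp1, Atf4, Asns, Cebpg and Ppp1r15a were lower. All Poly(A:U) libraries lay outside the range of PBS 1 to 3 for 9 members (15.6% of all genes), and outside the range of PBS 4 and 5 for 0 members (5.3% of all genes). The batch that a shared file name may mark holds PBS libraries alone, so within it no Poly(A:U) value exists, and a batch and a difference between pups cannot be told apart for PBS 1 to 3. With the shared start as a covariate, edgeR called 0 members and 0 of 13729 genes, and gave 1 member, Herpud1, at an unadjusted p under 0.05 beside 997 genes (7.26%). Every library with that start is a PBS library, so the treatment term of this fit rests on PBS 4 and 5. It repeats the comparison against them and is not a separate check. Other file names share a number, which pairs PBS 4 with Poly(A:U) 5, PBS 5 with Poly(A:U) 1, and Poly(A:U) 3 with Poly(A:U) 4. What this number stands for is not stated in the labels. Ppp1r15a was at 28.3 CPM in Poly(A:U) 5 and 24.8 CPM in PBS 4, and at 68.8 CPM in Poly(A:U) 1 and 81.2 CPM in PBS 5. Eif2ak3 was at 281 and 174 CPM in the first of these pairs and at 237 and 244 CPM in the second. Herpud1 was at 128 and 137 CPM in the first and at 142 and 183 CPM in the second.

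**Figure D4:**
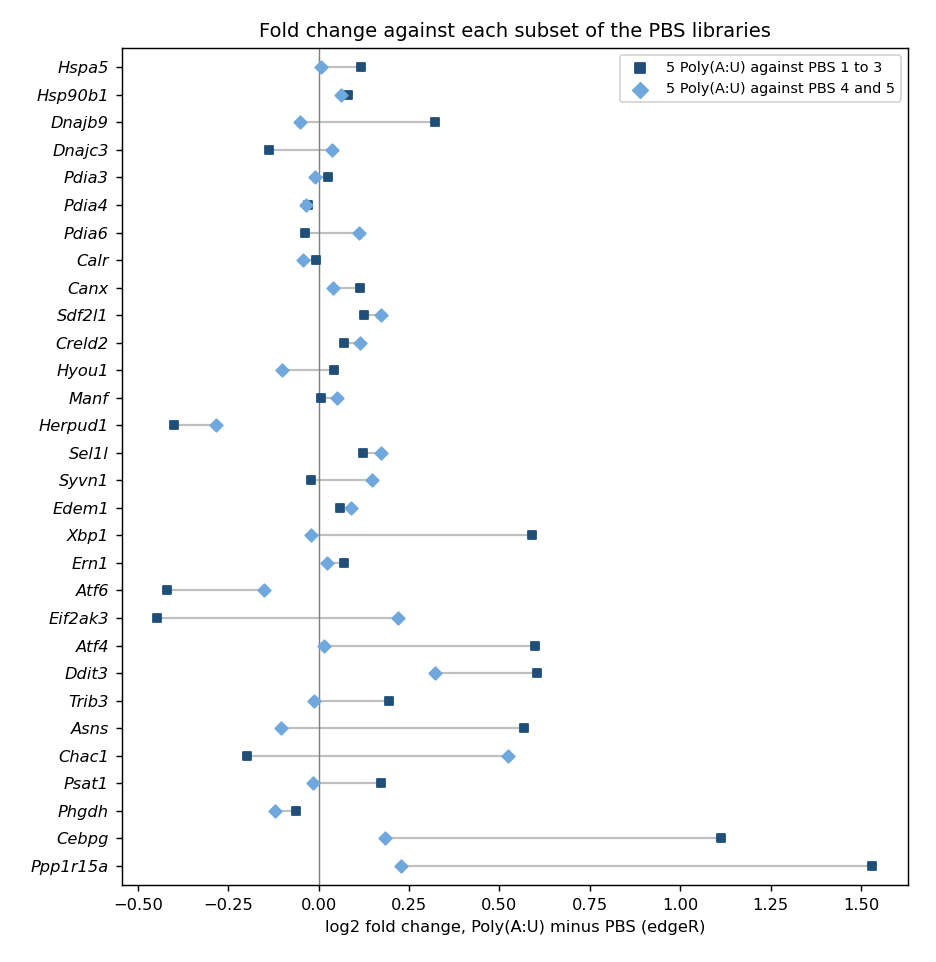
The log2 fold change of each tested gene from edgeR, 5 Poly(A:U) libraries against PBS 1 to 3 (squares) and against PBS 4 and 5 (diamonds), joined by a line. For Ppp1r15a the pair is 1.53 and 0.23 and for Cebpg 1.11 and 0.18, whereas for Herpud1 both lie below 0 at -0.40 and -0.28. Herpud1 in PBS 4 lay within the Poly(A:U) range.

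Levels of the members were set beside the erythroid marker sum, both on the log2 scale. The relation was not planned, its libraries, from both groups, were chosen after seeing the data, and no other marker sum was used. PBS 1 to 3 form a cluster of their own at low erythroid marker sums, so relations were computed over the other 7 libraries. There Ppp1r15a had Pearson's r of 0.946 and Spearman's rho of 0.964 with the erythroid marker sum, with exact permutation p of 0.00198 and 0.00278. Adjusted over the 30 members by Benjamini-Hochberg these became 0.0595 and 0.0833. Atf4 had r of 0.939 and rho of 0.857, and Trib3 had r of 0.921 and rho of 0.857. Their exact permutation p for r, 0.00397 and 0.00675, became 0.0595 and 0.0675 after adjustment, and those for rho were 0.0238 each and became 0.179. Without Poly(A:U) 2 and 5, the 2 libraries farthest from the median of the log2 sum, r was 0.912 for Ppp1r15a, 0.816 for Atf4 and 0.830 for Trib3. Without Poly(A:U) 2 and PBS 5, the farthest when the sum is taken in CPM, r was 0.906, 0.890 and 0.818, a choice made after seeing the data. So few libraries give large r easily. Without Poly(A:U) 2 and 5, r was 0.971 for Atf6, -0.907 for Pdia4 and -0.903 for Psat1. For Dnajc3 it changed from -0.525 over the 7 libraries to 0.713. Syvn1 had r of 0.708 and rho of 0.893, with exact permutation p of 0.0818 and 0.0123, and the chaperone gene Canx had r of -0.841 and rho of -0.786, with exact permutation p of 0.0187 and 0.0480. Cebpg had r of -0.526 and rho of -0.321 in the same 7 libraries, with exact permutation p of 0.234 and 0.498. Elsewhere in the ATF4 arm r there was 0.727 for Ddit3, 0.391 for Asns, -0.469 for Chac1, -0.547 for Psat1 and 0.048 for Phgdh. None of the 30 passed at an adjusted p of 0.05. Neither group alone has enough libraries for a correlation to be reported. Within the Poly(A:U) group Ppp1r15a, the member with the highest r, had the same order of libraries as the erythroid sum, while Atf4 and Trib3 did not. The part of erythroid RNA in the ATF4 arm values was not tested.

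**Figure D5:**
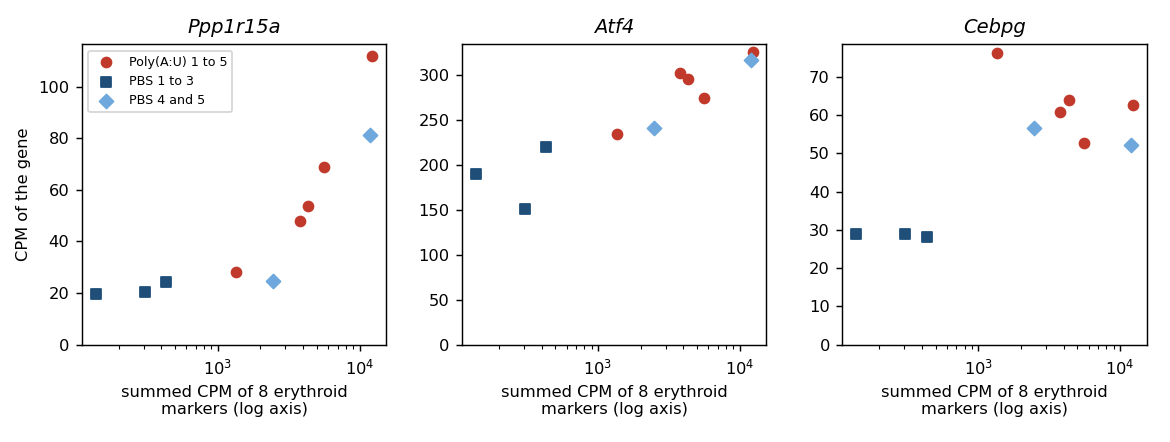
CPM of Ppp1r15a, Atf4 and Cebpg against the summed CPM of 8 erythroid markers (log axis) in the 10 libraries, with Poly(A:U) as circles, PBS 1 to 3 as squares and PBS 4 and 5 as diamonds. Ppp1r15a is at 28.3 to 112 CPM and Atf4 at 234 to 325 CPM in Poly(A:U) libraries, against 19.6 to 81.2 CPM and 150.2 to 316 CPM in PBS libraries, while Cebpg stands at 52.6 to 76.1 CPM in Poly(A:U) libraries, at 28.1 to 29.0 CPM in PBS 1 to 3 and at 56.6 and 52.2 CPM in PBS 4 and 5.

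Further genes of both pathways were read from 2 lists. Of 41 tested genes for ER folding and quality control that are not members, 15 had a fold change above 0 and 26 below, with a median of -0.02 and 0 called. By smallest unadjusted p the first was Ero1l, the ER oxidase ERO1α, which measured 33.7, 31.9, 35.7, 35.0 and 38.6 CPM in Poly(A:U) libraries, against 30.8, 30.1, 28.8, 27.2 and 28.4 CPM in PBS libraries. Its groups did not overlap, and the log2 fold change was 0.24 ± 0.07, with an edgeR quasi-likelihood adjusted p of 0.68 (Benjamini-Hochberg). Derl2, a channel component of ER associated degradation, had a log2 fold change of 0.21 ± 0.10, and Ube2g2, a ubiquitin conjugating enzyme of the same pathway, one of -0.25 ± 0.12. Of 40 tested genes of the integrated stress response outside the members, 16 had a fold change above 0 and 24 below, with a median of -0.03 and 0 called. Slc38a2, an amino acid transporter gene that ATF4 raises, averaged 259 ± 52.0 CPM in Poly(A:U) cells and 194 ± 38.3 CPM in PBS cells, a log2 fold change of 0.38 ± 0.15. Gadd45a, a growth arrest gene, averaged 22.03 ± 5.75 CPM in Poly(A:U) cells and 14.3 ± 5.05 CPM in PBS cells, and was lowest in PBS 1 to 3, at 11.5, 11.5 and 10.7 CPM. Ppp1r15b, the constitutive counterpart of GADD34 in removing phosphate from eIF2α, averaged 216 ± 29.6 CPM in Poly(A:U) cells and 184 ± 11.7 CPM in PBS cells.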

How the data were processed

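Bulk RNA-seq of 5 Poly(A:U) and 5 PBS libraries was used, 1 library per pup per the design text. Per the file headers, the authors deposited estimated counts of reads and TPM per transcript for each library, and a table of the series with a normalized signal per gene. DRAGEN, the build mm10 and edgeR 3.38.4 are named in the submitters' processing notes. Counter settings, annotation release and use of strand were not given in the sources used here, so overlapping or antisense genes may share reads, and so may processed pseudogenes. Whole reads could not be recovered from the deposited signal, which was used as a check alone (r of at least 0.997 with CPM on the log2 scale in each library, over 13690 genes, which are not independent replicates). Single members agreed less well. Over the 30 members in that table, CPM divided by the deposited signal ran from 0.59 in Poly(A:U) 2 to 1.25 in Poly(A:U) 5.

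Estimated counts were summed over transcripts per gene with GENCODE M21, leaving out 538 of 142333 transcripts, and rounded. CPM divides these sums by the library total. For Ddit3, whose symbol has 2 gene IDs, the ID with the most reads was used. Genes were kept by filterByExpr (minimum count 10) and fitted with edgeR 4.0.16 in R 4.3.3 (TMM factors, robust quasi-likelihood, treatment alone). Adjusted p-values are Benjamini-Hochberg over all tested genes, two-sided, with a threshold of 0.05. Standard errors come from the F statistic. DESeq2 1.42.0, limma 3.58.1, other filters and factors, the replicate number as a block, and fits without single libraries or sets of them were the alternatives. No pair of the 10 libraries agreed within counting noise, the smallest chi-square per gene being 10.1.

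The members and gene lists were chosen with earlier results of these data known. Text names all 32 members and, of each list of other genes with none called, the 3 with the smallest unadjusted p. On simulated data for the 13729 genes of this comparison, with 200 changed genes in each of 3 sets, edgeR called 34.3% of genes changed 1.5-fold, 68.7% of those changed 2-fold and 87.9% of those changed 4-fold, and unchanged genes made up 2.5% of the calls. Each gene was drawn on its own with the same mean in all libraries of a group. The simulation thus holds no split among PBS libraries, and its rates need not hold for the real ones. Few counts limit precision for Chac1, Atf3 and Slc7a11. Promoter sequences are from RefSeq (GRCm38.p6), and the Xbp1 sequence is from GENCODE M21 transcripts.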

Additional observations from a re-analysis of the deposited data

Results flagged for a closer look

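In 60 groups of 5 libraries, 30 genes in each group of pups, 4 had a library whose gap to its nearest neighbour took more than 0.71 of the group's range, where chance gives about 1 in 20. Creld2 was at 40.2 CPM in Poly(A:U) 5, against 50.9 to 54.5 CPM in the other Poly(A:U) libraries. Herpud1 was at 137 CPM in PBS 4, against 171 to 183 CPM in the other PBS libraries. Psat1 was at 176 CPM in PBS 4, against 130.04 to 140 CPM in the other PBS libraries. Ppp1r15a was at 81.2 CPM in PBS 5, against 19.6 to 24.8 CPM in the other PBS libraries. PBS 4 also had the most T cell and macrophage markers of all libraries, and PBS 5 the most erythroid markers of the PBS libraries. Their part in these values was not tested.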

How the results depend on the processing

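The number of genes called was 0 in the comparison as reported, 13 with DESeq2, 932 with voom and quality weights, 603 without PBS 4 and 5, and between 0 and 18 with 1 library left out, the 18 arising without PBS 5. Members called numbered 0, 1, 5 and 5 in the same settings, and 0 with any 1 library left out. Other factors, filters and the covariate gave 0 of both. The ATF4 arm median of 0.26 became 0.011 with the shared start as covariate, 0.015 without PBS 1 to 3 and 0.57 without PBS 4 and 5, and ran from 0.07, without Poly(A:U) 2, to 0.37, without PBS 4, with 1 library left out. The chaperone median stayed between 0.0034 and 0.06. The cause of these shifts was not tested. Of 568 fits of single members under the alternatives, 43 changed sign, in 16 members. The fit with the covariate and the fit without PBS 1 to 3 both set Poly(A:U) against PBS 4 and 5. Their sign changes are the same contrast counted in each fit. With the covariate and without PBS 1 to 3 the log2 fold changes were -0.054 and -0.051 for Dnajb9, 0.034 and 0.037 for Dnajc3, -0.016 and -0.011 for Pdia3, -0.026 and -0.022 for Xbp1, 0.22 and 0.22 for Eif2ak3, -0.017 and -0.013 for Trib3, -0.11 and -0.10 for Asns, and -0.022 and -0.016 for Psat1. With voom they were 0.0034 for Pdia4, 0.022 for Calr, 0.035 for Hyou1, -0.0038 for Syvn1, -0.053 for Ern1 and -0.11 for Chac1. Without PBS 4 and 5 they were -0.038 for Pdia6, 0.042 for Hyou1, -0.022 for Syvn1 and -0.20 for Chac1. With 1 library left out they ran from -0.023 to 0.053 for Pdia3, -0.011 to 0.056 for Pdia6, -0.057 to 0.022 for Calr, -0.058 to 0.030 for Hyou1, -0.042 to 0.094 for Manf, -0.044 to 0.080 for Syvn1, -0.12 to 0.15 for Ern1 and -0.12 to 0.23 for Chac1. The Herpud1-201 share differed by -4.92 points, by -7.46 points without PBS 1 to 3, where the exact p of 0.0952 is the smallest that 5 against 2 libraries can give, and by -5.92 to -4.20 points with 1 library left out. The replicate numbers did not pair the pups: correlations of deviations ran from -0.183 to 0.14, and 1 of the 5 Poly(A:U) libraries correlated best with its own number. The replicate block called 0 genes, with 943 at an unadjusted p under 0.05. The share of spliced Xbp1 mRNA and its alternatives were not run, since no annotated transcript lacks the intron alone.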
